A study of Homo sapiens with 4 samples.

Results

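After 4 days of 1 µM all-trans retinoic acid (ATRA), HL-60 cells carried 5383 isolated distal regions of open chromatin that had a peak in both ATRA libraries and in neither control library. They were 82.9% of the 6497 distal regions gained after ATRA and 6.90% of all 78063 regions found in the 4 peak lists. Against shared and lost distal regions they were richer in the motif of PU.1, a master regulator of myeloid cells, and against the other gained distal regions by a small margin. The motif lay at the centres of all these region sets. The members and the other gained distal regions held GATA motifs less often than the regions lost after ATRA. A small group of 20 carried the DR5 element of the retinoic acid receptor. The 10 highest-ranking members lay in or near DOCK5, RUNX2, HLX, DNAH17, EIF1B, HIPK2, SLC25A13, DAB1, ID2 and TRIB1. Among members nearest to genes of the lists described below, those of CYP26A1, NCF4, ITGA4 and SPI1 also ranked high.

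HL-60 is a human leukemia cell line, labelled as acute promyelocytic leukemia from peripheral blood, and all cells of the study are of this 1 line. The ATRA group (2 replicates) received 1 µM ATRA dissolved in ethanol for 4 days, and the control group (2 replicates) received an equal volume of ethanol for 4 days. Both groups had their medium and agent renewed during the treatment. ATAC-seq was done on each sample: a transposase inserts adapters into accessible DNA, and stretches with many insertions are called as peaks. The 4 deposited lists held 43494 and 63541 peaks for ATRA replicates 1 and 2, and 42081 and 45903 for control replicates 1 and 2. They give a position and a score for each peak and no read counts, so that the sequencing depth of each library is unknown. Promoter peaks of 7 myeloid marker genes were found at 4 to 5 genes in each library. Of 7 markers of other blood cells, 0 to 1 had a promoter peak in each library, and the 4 markers of other tissues had none in any library.

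The members were selected on the peak lists themselves. All peaks that overlapped by at least 1 bp were merged into regions. A region was called gained when both ATRA lists and neither control list had a peak in it, which applied to 6976 regions (8.94% of all), and 479 of these lay at promoters, from 1 kb upstream to 100 bp downstream of a transcription start site (TSS) of a coding gene. Promoter status and distances to a TSS were taken from the centre of a region. A gained distal region was a member when no other gained distal region lay within 20 kb, edge to edge. The remaining 1114 gained distal regions, which had such a neighbour, are called clustered here. For comparison, 17003 distal regions had a peak in all 4 lists (shared), and 2541 distal regions had a peak in both control lists and in neither ATRA list (lost), out of 2633 lost regions in all (3.37%). The absence of a control peak and the presence of ATRA peaks are therefore not results. A region without a called peak may still be accessible below the calling threshold. The number of members depended on the libraries: 13704 regions met the rule when ATRA replicate 1 was left out, and 1149 when only peaks above the median score of each ATRA list were used.

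Distal open regions are often enhancers, stretches of DNA where transcription factors bind and act on genes over a distance. In the granulocytic lineage PU.1 (encoded by SPI1), C/EBP and RUNX factors open and hold such sites, while GATA2 is a factor of stem and progenitor cells. ATRA enters the nucleus and binds retinoic acid receptors, which pair with RXR on direct repeats of a hexamer, and HL-60 cells exposed to it mature towards neutrophils.

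The sequences of 6 members are given first, since these regions lie near genes of neutrophil function, of the retinoid response or of myeloid regulation and show the motifs counted below. Each is the central 200 bp of the region on the forward strand of hg19 (GRCh37), and capitals mark matches to PU.1 (GAGGAAGT), RUNX (AACCACA), CEBP (TTGCNNAA) and IRF (a pair of GAAA separated by 2 bases), on either strand.
SPI1 region, chr11:47409706-47409905: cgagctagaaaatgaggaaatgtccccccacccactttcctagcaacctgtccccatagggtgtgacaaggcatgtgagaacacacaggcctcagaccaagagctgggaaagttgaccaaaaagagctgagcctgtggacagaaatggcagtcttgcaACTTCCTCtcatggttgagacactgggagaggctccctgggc
TNFRSF1B region, chr1:12244340-12244539: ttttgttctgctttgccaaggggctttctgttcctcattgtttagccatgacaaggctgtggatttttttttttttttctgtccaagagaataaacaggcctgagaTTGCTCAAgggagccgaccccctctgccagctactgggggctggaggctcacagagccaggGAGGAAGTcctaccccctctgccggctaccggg
CYP26A1 region, chr10:94884525-94884724: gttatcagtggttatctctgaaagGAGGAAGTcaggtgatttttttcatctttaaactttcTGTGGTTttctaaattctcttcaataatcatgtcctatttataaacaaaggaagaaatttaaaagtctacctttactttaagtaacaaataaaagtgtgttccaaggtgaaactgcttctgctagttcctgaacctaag
HLX region, chr1:221088232-221088431: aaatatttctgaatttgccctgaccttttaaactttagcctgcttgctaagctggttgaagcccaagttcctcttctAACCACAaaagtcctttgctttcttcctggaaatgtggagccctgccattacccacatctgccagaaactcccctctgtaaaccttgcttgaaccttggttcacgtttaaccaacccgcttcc
NCF4 region, chr22:37269926-37270125: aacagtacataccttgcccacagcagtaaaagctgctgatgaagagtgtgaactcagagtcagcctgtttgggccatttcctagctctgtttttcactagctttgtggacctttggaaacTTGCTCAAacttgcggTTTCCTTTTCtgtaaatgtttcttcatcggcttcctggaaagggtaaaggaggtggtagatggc
CLEC7A region, chr12:10281392-10281591: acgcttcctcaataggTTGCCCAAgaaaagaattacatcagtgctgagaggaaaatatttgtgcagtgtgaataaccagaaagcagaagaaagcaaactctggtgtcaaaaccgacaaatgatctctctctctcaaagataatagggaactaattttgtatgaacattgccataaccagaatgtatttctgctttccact
The first lay 9708 bp upstream of a TSS of SPI1 and held a PU.1 motif, and its peaks ranked at the 77.1 and 91.5 percentiles of ATRA replicates 1 and 2. A percentile is the position of a peak's score within its own list, with the lowest score near 0. In an intron of TNFRSF1B, a receptor for tumor necrosis factor, a PU.1 and a CEBP motif stood in the same window (percentiles 65.5 and 66.5). The CYP26A1 region held a PU.1 and a RUNX motif (65.5 and 67.8). It lay 50975 bp downstream of a TSS of this gene, whose enzyme degrades retinoic acid. The HLX region ranked at 93.5 and 97.3, and HLX encodes a homeobox factor of blood progenitors. The NCF4 region, inside an intron of the gene for a cytosolic subunit of the NADPH oxidase, held a CEBP and an IRF motif (88.6 and 86.9). The region in CLEC7A, a receptor for fungal glucans, ranked at 79.9 and 83.0.

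The DR5 element is a direct repeat of the hexamers AGGTCA or AGTTCA or GGGTCA or GGTTCA with a spacer of 5 bases, and it is the classical binding element of the retinoic acid receptor. It was found in the central 200 bp of 20 members. The matches in the 10 members of highest rank are shown because they let the hexamers and spacers be compared; each line gives 29 bases of hg19, read on the strand stated, with both hexamers in capitals.
RUNX2 region, chr6:45649886-45649914, reverse strand: catctaGGGTCAgctggAGGTCAgctaag
ITPR2 region, chr12:27027567-27027595, reverse strand: cggcgaGGGTCAtctctGGGTCAttcctg
HIPK2 region, chr7:139333788-139333816, forward strand: aggggaAGTTCAgaaaaAGGTCAgaaaga
SNX11 region, chr17:46318598-46318626, reverse strand: atgcagAGTTCAtccagGGGTCAgaactg
PRDX6 region, chr1:173391680-173391708, forward strand: tctaggAGGTCAaaatgAGGTCAgggaaa
PIK3CG region, chr7:106499657-106499685, reverse strand: tctccaGGTTCAgaaaaAGGTCAcaggag
ITGA1 region, chr5:52034088-52034116, reverse strand: aaccagAGTTCAattccAGGTCAcagtta
FOXA2 region, chr20:22352572-22352600, reverse strand: cgcgaaGGTTCAggttcAGGTCAcattat
MAN1A1 region, chr6:119634252-119634280, reverse strand: actctgAGTTCAgctaaAGGTCAaagcat
DACH1 region, chr13:72287265-72287293, reverse strand: gagaaaAGTTCAgggaaAGTTCActtcta
Gene names in these lines are those of the nearest coding TSS. The region named for SNX11 lay in an intron of SKAP1, an adaptor protein of blood cells, and the regions named for HIPK2, MAN1A1 and DACH1 lay in introns of those genes. In the 22 matches outside untranslated exons, the hexamer AGGTCA was used 17 times, AGTTCA 15 times, GGGTCA 7 times and GGTTCA 5 times. The region near NXT1 held 4 of these matches, with nearly the same letters.

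DR5 was rare in every set, but less so in the members and the clustered gained regions than in shared or lost ones. It was present in 0.372% of members (20 of 5383, 95% Wilson interval 0.241 to 0.573) and in 0.0588% of shared distal regions (10 of 17003). The difference was 0.313 percentage points (95% Newcombe interval 0.173 to 0.516). None of the 2541 lost distal regions had one, a count of 0 that allows a share of up to 0.118%, and the difference was 0.372 points (0.172 to 0.573). The clustered gained regions held 6 in 1114 (0.539%), and the interval of that difference included 0 (−0.812 to 0.187). The same hexamers spelled backwards, which keep the base composition, occurred in 3 members, 0.0557%, and gave intervals that included 0 against each of the 3 sets. Of all 76 regions with a DR5, 20 were members. Leaving out ATRA replicate 1 gave a DR5 share of 0.124%, and restricting the ATRA lists to peaks above their median score gave 1.13%.

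Members with a DR5 were spread over the range of scores, with most of them high. The 1346 members of highest mean percentile (52.4 to 97.6) held 12 of the 20, and the 1346 of lowest mean percentile (0.809 to 24.7) held 2. The DR5 region of highest rank lay 259594 bp downstream of a TSS of RUNX2, a RUNX family factor, at chr6:45649407-45650408, with percentiles of 97.8 and 93.7 and no peak in either control. Upstream of ITPR2, an intracellular calcium channel, a DR5 region reached 92.3 and 89.2. A HIPK2 intron held another at 85.5 and 88.2; HIPK2 is a nuclear kinase. The region 6127 bp upstream of PIK3CG, a phosphoinositide kinase of leukocyte migration, had percentiles of 63.5 and 82.2. At the low end, the region in AVEN nearest to CHRM5 had 15.8 and 11.4, and the region in AGO1 had 3.37 and 55.9, far apart in the replicates. DR2, with a spacer of 2 bases, was found in 14 members (0.260%), more often than in shared regions (0.225 points, 0.112 to 0.402) and less often than in clustered gained regions (−0.458 points, −1.16 to −0.0629). The DR2 member of highest rank lay 112527 bp upstream of THBS1 (89.1 and 88.2).

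Among the 16 motifs searched on both strands of the central 200 bp, PU.1 was more frequent in the members than in each of the other sets, by the least against clustered gained regions. It was found in 14.4% of members (775 of 5383, 13.5 to 15.4), in 12% of clustered gained (134 of 1114), in 8.33% of shared distal and 8.66% of lost distal regions, and in 8.94% of all regions. The members exceeded the clustered regions by 2.37 points (0.132 to 4.39), the shared by 6.06 (5.06 to 7.11) and the lost by 5.74 (4.27 to 7.15). The motif letters reversed occurred in 1.62% of members, and none of its 3 intervals excluded 0. These intervals cover the counting of regions only, treat regions as independent and are not adjusted for the 48 comparisons made. Without ATRA replicate 1 or without control replicate 2, the members' own share was 12.9%, and the differences were not recomputed.

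**Figure D1:**
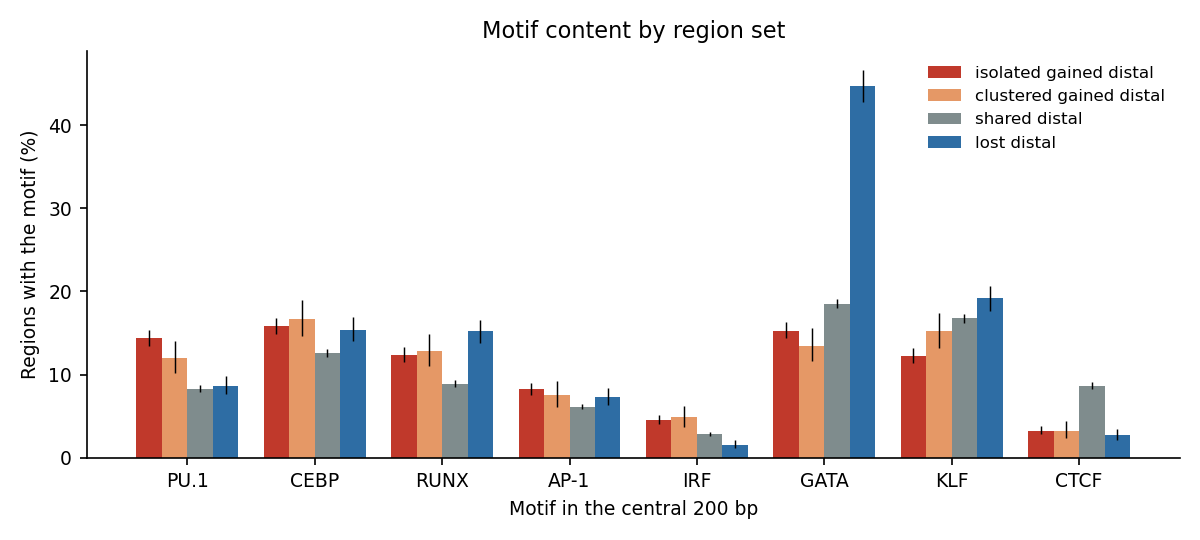
Share of regions with each motif in the central 200 bp, for the 4 region sets; bars are percentages and error lines 95% Wilson intervals. PU.1 stood at 14.4% in the isolated gained distal regions and 8.33% in the shared ones, and GATA at 44.7% in the lost ones.

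CEBP, RUNX and AP-1 motifs were also more frequent in the members than in shared distal regions. No higher share than in lost or clustered gained ones was resolved. CEBP, the motif of a factor family of granulocyte development, was found in 15.8% of members and 12.6% of shared regions (3.24 points, 2.16 to 4.35), and the interval against lost regions included 0 (−1.34 to 2.08). RUNX was found in 12.4% of members, 3.49 points above shared (2.53 to 4.48) and 2.82 points below the 15.2% of lost regions (−4.50 to −1.20). AP-1 (TGACTCA or TGAGTCA), bound by FOS and JUN dimers, was found in 8.29%, 2.13 points above shared (1.33 to 2.97). IRF, the element of interferon regulatory factors, was found in 4.53%, above both shared (2.88%) and lost (1.57%) regions, but its reversed letters also differed in both comparisons. Clustered gained regions held CEBP in 16.7%, RUNX in 12.8%, AP-1 in 7.54% and IRF in 4.85%. Each interval of the members' difference from them included 0, so these shares were not particular to isolated regions. At least 1 of these 5 motifs was present in 45.2% of members (43.9 to 46.6), 45.6% of clustered gained, 32.2% of shared and 41.9% of lost regions, so 2948 members had none of them in this window.

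The GATA motif, spelled AGATAA or TGATAA, showed the widest gap in percentage points among the 16 motifs, against lost regions. It was found in 15.3% of members against 44.7% of lost distal regions (−29.4 points, −31.6 to −27.2) and 18.5% of shared ones (−3.24 points, −4.35 to −2.10). Clustered gained regions held it in 13.5%, and the interval of the members' difference included 0 (−0.485 to 3.97). Among all regions the share was 18.8%. The GATA letters reversed occurred in 16.7% of members, at least as often as the motif itself. CTCF, the motif of the insulator factor that anchors chromatin loops, was found in 3.27% of members, below the 8.63% of shared regions (−5.36 points, −5.98 to −4.70), with no difference resolved from clustered or lost regions. KLF (CCACCC) was less frequent in members (12.3%) than in each of the other sets, and its reversed letters followed the same pattern. The median GC content of the member windows was 45.0%, against 48.0% for shared regions.

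The PU.1 motif was concentrated at the centres of the members. It was found in 5.02% of members per 50-bp bin within 50 bp of the centre and in 0.283% per bin at 300 to 500 bp, a ratio of 17.7, while the ratio was 9.83 in clustered gained, 9.67 in shared and 12 in lost regions. PU.1 was thus central in all 4 sets, and the difference between these ratios was not tested. With reversed letters the ratio in members was 1.43. RUNX was central as well (4.26% against 0.873% per bin, ratio 4.88, reversed 1.20), AP-1 less so (2.97, reversed 1.27), followed by CEBP (1.67, reversed 1.05) and IRF (1.41, reversed 1.07). GATA was depleted at the centres of members, with 3.59% per bin against 6.39% in the flanks, a ratio of 0.562, and its reversed letters gave 0.716. Clustered gained regions had a ratio of 0.641. In lost regions the same motif peaked at the centre with a ratio of 2.55.

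**Figure D2:**
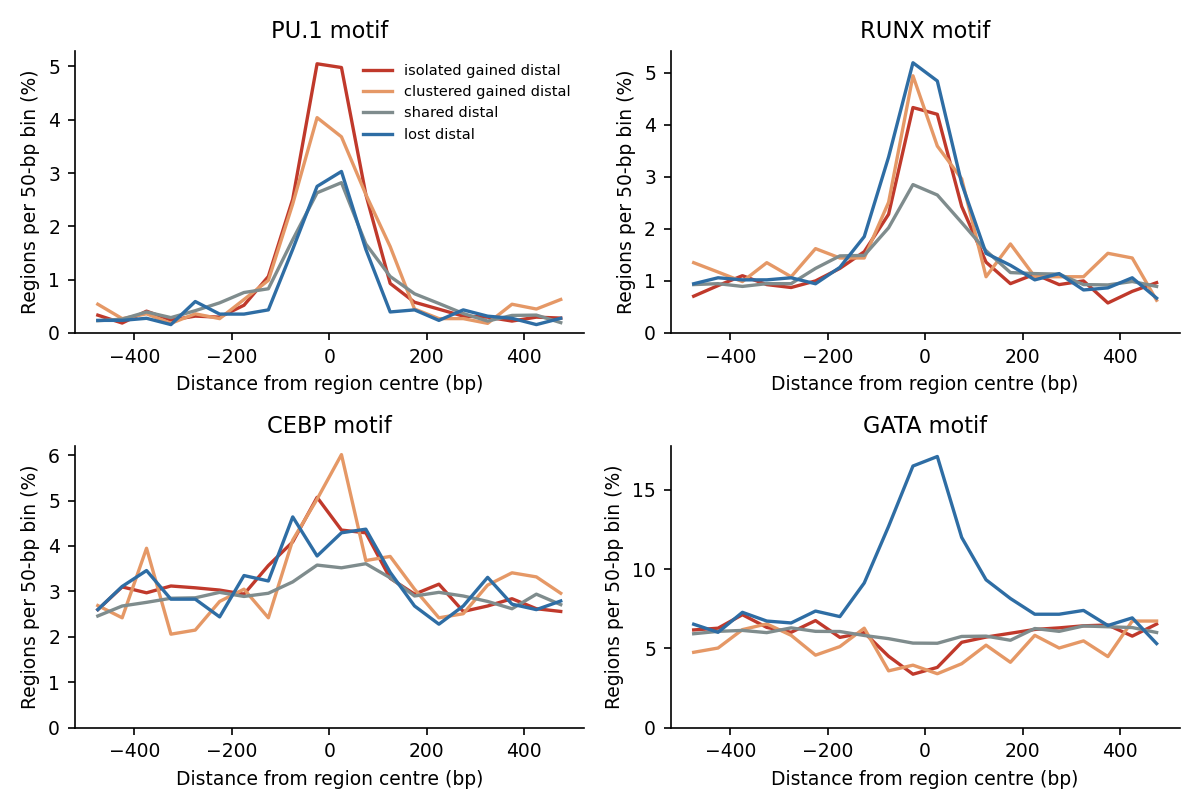
Share of regions with a motif in each 50-bp bin, by distance of the bin from the region centre, for PU.1, RUNX, CEBP and GATA in the 4 region sets. The PU.1 and RUNX lines of the isolated gained distal regions rise at the centre to 5.02% and 4.26%, and their GATA line falls to 3.59%, where that of lost distal regions rises.

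CEBP motifs were less frequent in members with a PU.1 motif than in members without one. Among members with a PU.1 motif, the share that also had CEBP was different by −5.23 points from that among those without PU.1 (−7.55 to −2.58), an odds ratio of 0.647 (0.512 to 0.818). In shared distal regions the 2 motifs met more often (5.20 points, 3.25 to 7.32; odds ratio 1.52, 1.31 to 1.76), and the ratio of the members' odds ratio to theirs was 0.426 (0.323 to 0.561). The clustered gained regions had an odds ratio of 0.517 (0.288 to 0.929), and lost regions 0.761 (0.502 to 1.15). The ratio of the members' odds ratio to that of lost regions was 0.851 (0.528 to 1.37), which did not resolve a difference. This pair was 1 of 7 pairs of motifs compared, and GC content and window position were not accounted for. The pair of PU.1 and RUNX gave an odds ratio of 0.858 (0.674 to 1.09) in members. PU.1 and AP-1 gave 1.04 (0.793 to 1.37). PU.1 and GATA motifs met more often in members, with an odds ratio of 1.31 (1.07 to 1.59), and the ratio to the odds ratio of shared regions was 1.04 (0.820 to 1.32).

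Motif content varied with rank and with distance from genes. From the 1346 members of lowest to the 1346 of highest mean percentile, RUNX rose from 9.73% (8.26 to 11.4) to 14.9% (13.1 to 16.9), CTCF went from 3.94% (3.02 to 5.11) to 1.56% (1.02 to 2.37), and PU.1 stood at 14.9% and 15.9%. These values describe the ranking and were not tested, since the scores come from the contrast that chose the members. Of the members more than 100 kb from a coding TSS, 17.4% had a PU.1 motif, against 13.0% of those within 10 kb, a difference of 4.45 points (1.68 to 7.16). RUNX was 4.46 points more frequent far from genes (1.98 to 6.88), GATA 4.65 (1.89 to 7.34) and CEBP 3.77 (1.01 to 6.46). KLF was less frequent there (−8.22 points, −11.0 to −5.55), as was CTCF (−2.61, −4.06 to −1.31). NF-kB (−3.50, −5.30 to −1.82) and E-box (−1.97, −3.49 to −0.585) were also less frequent. Reversed letters were not compared by distance. The median GC content went from 49.0% near genes to 43.0% far from them.

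The peaks of members ranked low to middle in their lists. The median percentile was 31.9 in ATRA replicate 1 and 44.1 in ATRA replicate 2, and the median of the mean of both was 37.2 (quartiles 24.7 and 52.4). Shared distal regions stood at 60.1 and 74.9, and clustered gained regions at 35.6 and 44.9. Above the 50th percentile in both lists were 992 members (18.4%), below it in both were 2705 (50.3%), and 9 passed the 90th percentile in both. The ranks of the members in the replicates had a Spearman correlation of 0.42 (n = 5383 regions, a description over regions that share 2 libraries), against 0.71 for shared distal regions. Peaks were wider in ATRA replicate 2 in 84.0% of members, with medians of 272 bp in replicate 1 and 391 bp in replicate 2. The centres of both peaks lay a median of 40.0 bp apart.

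**Figure D3:**
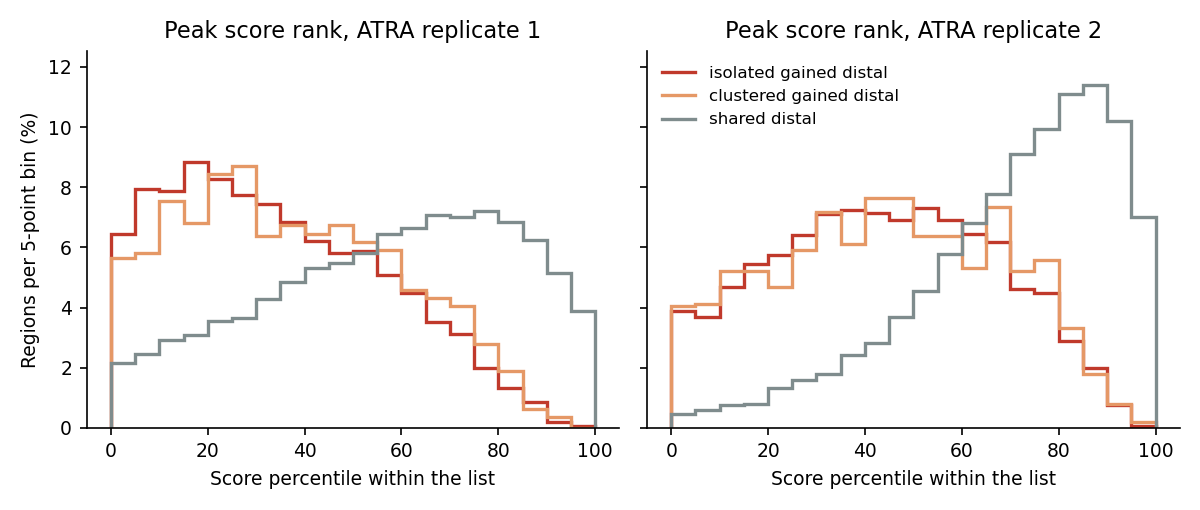
Distribution of peak score percentiles in the 2 ATRA lists, as the percentage of regions per bin of 5 percentile points, for isolated gained, clustered gained and shared distal regions. Isolated gained regions have medians of 31.9 and 44.1, below the shared regions at 60.1 and 74.9.

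The 10 members of highest mean percentile lay between 9720 and 299085 bp from the nearest coding TSS. First was a region over a coding exon of DOCK5, an activator of Rac, at chr8:25202793-25203354, whose peaks ranked at 96.5 and 98.7 and whose nearest TSS was that of GNRH1, 78703 bp away. The RUNX2 and HLX regions described above came next. They were followed by a region 15131 bp upstream of DNAH17 at chr17:76588178-76589039 (95.7 and 91.9), with RUNX and AP-1 motifs. A region 9720 bp upstream of EIF1B at chr3:40341120-40341835 had 93.5 in both replicates and held CEBP and AP-1 motifs. Introns of HIPK2 (93.9 and 91.1), SLC25A13 (89.3 and 94.8) and DAB1 (90.5 and 93.1, with a PU.1 motif) held 3 more. Of the last 2, one lay 152822 bp upstream of ID2, an inhibitor of helix-loop-helix factors, at chr2:8665553-8666752 (88.8 and 94.2). The other lay 299085 bp downstream of a TSS of TRIB1, a pseudokinase that promotes degradation of C/EBPα (87.7 and 94.9).

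Members were set in introns of coding genes in 44.7% of cases (2407, 43.4 to 46.0) and between genes in 35.5% (1912). A further 15.6% lay in noncoding genes, 2.71% in untranslated exons and 1.49% in coding exons. They were intronic less often than clustered gained regions (51.2%, difference −6.45 points, −9.66 to −3.23), and no difference in the intron share was resolved from shared (−0.951 to 2.10) or lost regions (−4.00 to 0.702). The median distance to the nearest coding TSS was 38383 bp, against 23753 bp for clustered gained, 35350 bp for shared and 40863 bp for lost distal regions. More than 100 kb from any such TSS lay 28.1% of members and 15.8% of clustered regions (12.3 points, 9.78 to 14.7). Isolation itself favours sparse neighbourhoods, so this difference is tied to the rule. Against shared regions the difference was 2.70 points (1.34 to 4.08), and against lost regions 0.0264 (−2.11 to 2.13).

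**Figure D4:**
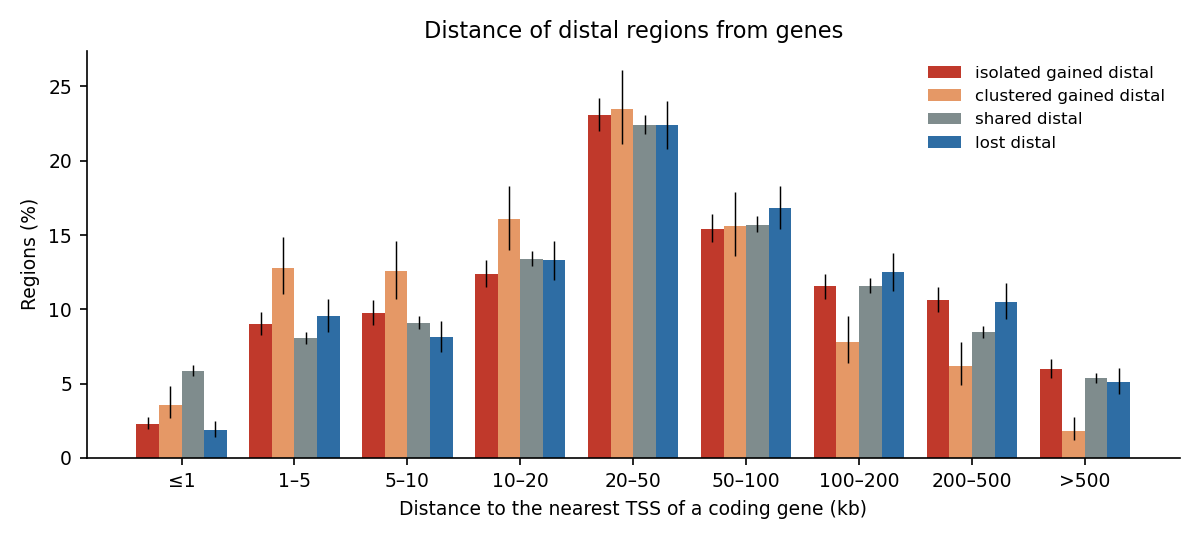
Share of regions by distance to the nearest TSS of a coding gene, for the 4 region sets; bars are percentages and error lines 95% Wilson intervals. Isolated gained distal regions reach beyond 100 kb in 28.1% of cases and clustered gained ones in 15.8%.

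The gap from a member to the nearest other gained distal region had a median of 136631 bp (quartiles 62355 and 299203). The members just inside the limit had gaps of 20018, 20018 and 20106 bp, and they lay near ODF1 (a pair of members) and SLC35E1. Just outside were regions near CORIN and DUSP5 with gaps of 19999, 20000 and 20000 bp. The 3 most remote members lay 2703820 bp (upstream of PLS3 on the X chromosome), 2915620 bp (also on X) and 3097550 bp (on Y) from another. Y carried 15 members, and whether their reads come from that chromosome was not tested. Isolation concerned gained distal regions only: 70.7% of members had some other region within 20 kb, 37.6% had a region present in all 4 lists, 6.15% had a lost region and 1.49% had a gained promoter region. By chromosome, chromosome 19 carried 84.4 members per 100 shared distal regions and chromosome 18 carried 19.5. Chromosomes 17 and 19 to 22, put together after their values were seen, had 64.5 members per 100 shared regions, and the other autosomes 29.1, while lost regions stood at 13.7 and 14.9 per 100. On each of these chromosomes the whole list of ATRA replicate 1 also held more peaks than that of control replicate 1. Chromosome 19 had 1538 against 1018, while chromosome 1 had 4091 against 3937 and chromosome 2 had 3816 against 3859. The ATRA list contains the peaks of the members and, by the rule, the control list does not. These counts therefore cannot show whether the pattern extends beyond the members. DNA copy number differs along the HL-60 genome, and its part was not tested.

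A member was assigned to the coding gene with the nearest TSS, without evidence that it acts on that gene. In total 4088 of 20136 coding genes (20.3%) were nearest to at least 1 member, and 2029 (10.1%) to at least 1 lost distal region. Each of the 6 gene lists exceeded 20.3%, and each also exceeded the 10.1% for lost distal regions. Each exceeded the background for shared distal regions too, to which 39.4% of all coding genes were nearest, though retinoid response genes only just (40.0%). Higher shares than among all coding genes were therefore not particular to the members. No test was made of these counts.

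**Figure D5:**
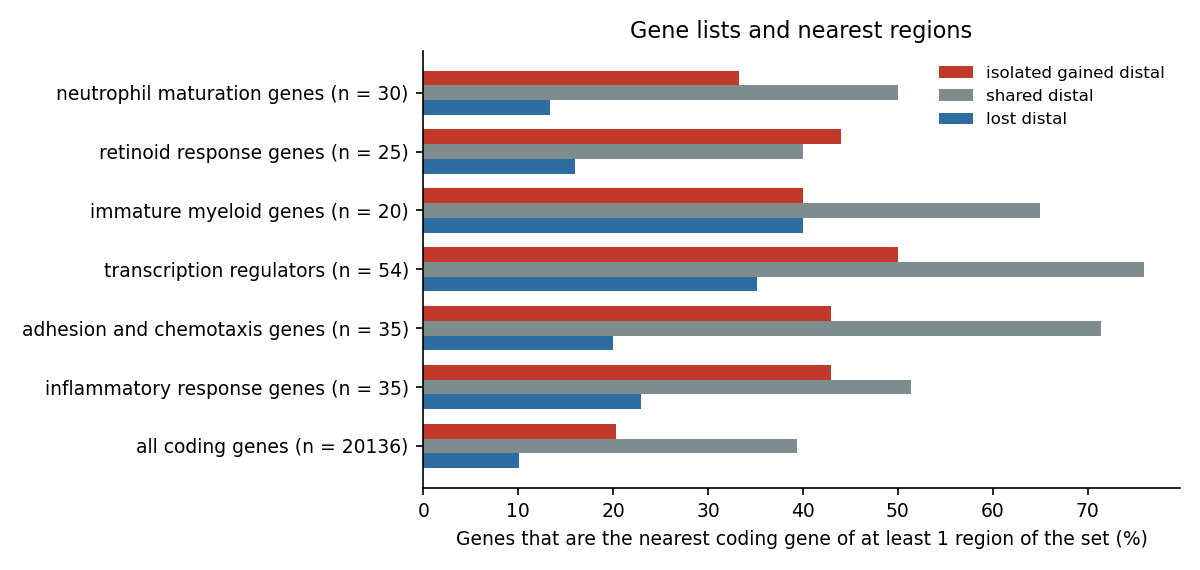
Percentage of the genes of each list that are the nearest coding gene of at least 1 isolated gained, shared or lost distal region, with all coding genes at the bottom. The isolated gained bars range from 33.3% to 50.0% over the lists and stand at 20.3% for all coding genes.

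Neutrophil maturation genes were nearest to members in 10 of 30 cases (33.3%, lost 13.3%). Beside the NCF4 region, a region 6059 bp upstream of ITGAM, the alpha chain of the integrin Mac-1, ranked at 76.1 and 81.3, and a second one 22174 bp downstream of that TSS, in the gene, ranked at 19.8 and 18.4. A region near FCGR3B, an Fc receptor of neutrophils, had 69.8 and 79.9. FCGR3B and NCF1 (51.1 and 73.1) have near-identical copies in the genome, so that reads of these regions may belong to a copy. The region upstream of PADI4, which citrullinates histones, had 53.9 and 77.7. The centre of an S100A9 region of 58.9 and 53.4 lay 161 bp downstream of a TSS, barely outside the promoter window. This region was 826 bp wide and so also covered that TSS.

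Of 25 retinoid response genes, 11 were nearest to members, with 16 regions, 4 to lost and 10 to shared distal regions. These counts cannot be compared directly, since 20.3%, 10.1% and 39.4% of all coding genes were nearest to such regions. The share for lost regions also lay above its background. CYP26A1 had 3 members, all downstream, with percentiles of 86.5 and 92.8, 65.5 and 67.8, and 28.3 and 78.7. NRIP1, a corepressor of nuclear receptors, had members on both sides of the gene, at 62.9 and 79.0 downstream and 35.9 and 78.1 upstream. The antiproliferative gene BTG1 had a member 273872 bp downstream of a TSS (63.6 and 76.4) and one 72778 bp upstream (41.3 and 46.6). An intron of CD38, an ectoenzyme induced in HL-60 cells by ATRA, held RUNX and AP-1 motifs (78.0 and 60.1). Members in introns of the receptor genes RXRA (51.5 and 45.4), RARB (23.8 and 28.6) and RARA (3.04 and 47.5) held no DR5. TGM2 had a member of low rank (6.72 and 19.1).

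Transcription regulators were nearest to members in 27 of 54 cases (50.0%, lost 35.2%, shared 75.9%), with 50 regions. After RUNX2, HLX, ID2 and SPI1 the members named here include one near BCL6, a repressor, at 68.9 and 72.3. ID2 was the nearest gene of 7 members and ZEB2, a zinc finger repressor, of 6.

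Adhesion and chemotaxis genes counted 15 of 35 (42.9%), and 7 of 35 were nearest to lost regions. ITGA4, the alpha chain of the integrin VLA-4, had a member 49997 bp upstream at chr2:182271545-182272329 (81.3 and 92.0). SIRPA, an inhibitory receptor of myeloid cells, had one at 76.2 and 71.4, and PIK3CG the DR5 region described above. Inflammatory response genes also counted 15 of 35 (42.9%, lost 22.9%). After CLEC7A came CD14, the coreceptor for lipopolysaccharide, whose member 1938 bp downstream of a TSS had unequal ranks of 48.5 and 88.1. ALOX5, the first enzyme of leukotriene synthesis, followed with 63.5 and 71.2 in an intron.

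Immature myeloid genes were nearest to members in 8 of 20 cases (40.0%) and to lost regions in as many. MYC had 8 members, and that of highest rank had 78.0 and 72.5, 790753 bp from the TSS. The MYC locus is amplified in HL-60 cells, and the part of copy number in these peaks was not tested. SOX4 had a member at 54.3 and 73.1, MYB one 4637 bp upstream at 66.8 and 58.8 with a RUNX motif, and a KIT intron one at 71.1 and 48.7 with a GATA motif.

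Most genes with a member had only one: 3221 of the 4088 were nearest to 1 member, 613 to 2 and 150 to 3. The genes with most members included SLITRK1 with 9, CADM1 and MYC with 8, and ALCAM, ID2, MRPL39 and NSUN3 with 7. The members of SLITRK1 lay a median of 561146 bp from its TSS and reached a mean percentile of at most 39.9, those of ALCAM 839684 bp and at most 80.4, and those of ID2 179676 bp and at most 91.5.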

How the data were processed

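ATAC-seq was measured in 2 ATRA and 2 control samples of HL-60 cells. According to the methods, adapters were removed, reads were aligned to hg19 with Bowtie and peaks were called with MACS2 at default settings. The submitters' processing notes name cutadapt, Bowtie2, MACS2 and MACS. Which release of Bowtie was used, and which release of MACS wrote the scores, was not settled. No step for the transposase offset, duplicate reads or blacklisted regions is given in the sources used here. The deposited lists, 1 per sample, have 5 columns and hold a whole-number score per peak from the peak caller of the authors, from 50 to 3100, which was used only as a rank within its own list. They hold no counts, so depth is unknown and no test on reads could be made. Where libraries differ in depth, a peak can be missing from the shallower one without a change in the cells.

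From these lists, peaks that overlapped by at least 1 bp were merged, and regions were classed by the lists that had a peak. The members, gene lists and motifs were chosen with earlier results of these data known. A TSS was 1 of the 56143 distinct start positions of basic transcripts of coding genes in GENCODE release 44 on GRCh37, which has the chromosome names of the files. Motifs were matched exactly on both strands within 100 bp of the region centre, in 16 families, and the same letters reversed served as a control of base composition. Of these, CTCF, NF-kB, E-box (CACGTG), STAT (TTCNNNGAA), EGR (GCGTGGGCG), ETS (CCGGAAGT) and DR1 were searched in the same way. A match is a description of letters, not of binding. Shares have 95% Wilson intervals and differences 95% Newcombe intervals. Odds ratios were computed after adding 0.5 to each cell, with 95% Woolf intervals. All cover counting error over regions, which are not replicates of a treatment. The study describes its replicates as independent biological ones.

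The text names the 10 members of highest mean percentile, members with a DR5, the 3 highest of each gene list, 3 members just inside and 3 regions just outside the 20 kb limit, the 3 most remote members and up to 10 genes with at least 3 members. Other named regions of the lists, and the DR2 region, were chosen after their values were seen. A few genes that this rule names are not reported here. The symbols DDX58 and PECAM1 of the lists had no match. The steps were tested on simulated peaks and sequences. Python 3.11.15, pandas 2.3.3, numpy 2.4.6, scipy 1.17.1, pysam 0.24.0 and samtools 1.23.1 were used.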

Additional observations from a re-analysis of the deposited data

How the results depend on the processing

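The 8 main values were recomputed under 100 alternatives in all. Of these, 69 stayed within the main value's 95% interval (within 1.5 times for the number of regions) and 31 moved. An isolation distance of 50 kb gave a median TSS distance of 41980 bp, and a promoter window of 5 kb on both sides gave 45959 bp and an intron share of 42.9%. With an equal number of peaks per list (the 42081 of highest score in each), the median percentile was 47.8. Percentiles still came from the full lists, so this choice removes low ranks by construction, mostly in ATRA replicate 2. With only the ATRA peaks above their list's median score, 1149 regions met the rule, with a median percentile of 67.7, an intron share of 47.2%, a DR5 share of 1.13% and a GATA share of 13.2%; this cut removes low ranks by construction. In windows of 100 bp, 400 bp and the whole region, the shares were 9.27%, 17.2% and 18.0% for PU.1, 8.71%, 25.7% and 27.3% for CEBP, and 6.72%, 32.5% and 34.4% for GATA, since a longer window holds more letters.

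Leaving out 1 library at a time gave 6985 to 13704 regions, median TSS distances of 38826 to 47039 bp, median percentiles of 25.4 to 39.8, and shares of 12.9% to 14.0% for PU.1, 14.0% to 16.1% for CEBP, 15.7% to 16.8% for GATA, 0.124% to 0.314% for DR5 and 44.4% to 45.5% for introns. The highest number of regions and the lowest DR5 share came without ATRA replicate 1, when gained regions rested on ATRA replicate 2 alone. No paired analysis was possible because the results come from peak lists with no test on replicates. The differences between region sets were not recomputed under these alternatives.

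With 2 replicates a group and no read counts, a member says only that peaks were called in both ATRA libraries and in neither control. ATRA replicate 2 had the longest list, and a weak control peak below threshold cannot be told apart from closed chromatin. Exact letters miss degenerate sites, and 4 members had an unknown base in the window. Nearest genes are positions, not targets.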
